A study of Homo sapiens with 6 samples.

Results

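The oncofetal RNA-binding and chromatin genes IGF2BP1, IGF2BP2, IGF2BP3, LIN28A, LIN28B, HMGA1 and HMGA2 were followed in Capan-1 cells, a human cell line established from a pancreatic carcinoma. Members were the probe sets that the platform annotation gave to exactly 1 of these 7 genes, 22 of the 54613 probe sets kept, for 7 of 19775 genes. All 7 were represented, by 1 probe set for LIN28A and for LIN28B and by up to 9 for HMGA2. RNA from 3 samples labelled p16 and 3 labelled mock, numbered V1 to V3 in each group, was compared, each on 1 Affymetrix HG-U133 Plus 2.0 array, so precision is limited by having 3 arrays a group. The p16 samples carried a full-length p16INK4a cDNA under the CMV promoter of the pRC/CMV vector, the mock samples are labelled only as mock-transfected, and transfected cells had been selected with G418 and hygromycin. The labels give no time after transfection and do not say whether replicates are separate cultures or clones. P-values here thus rest on a sample-to-sample spread that may be purely technical. All values are log2 expression levels, so a difference of 1 is a 2-fold change, and probe sets that detect nothing pile up below about 4, which was taken as the floor.

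Most of these genes are active in the embryo, largely quiet in adult tissue and switched on again in many carcinomas. IGF2BP1, IGF2BP2 and IGF2BP3 are cytoplasmic proteins that bind mRNAs, many of them at N6-methyladenosine, and protect or localise them. LIN28A and LIN28B bind precursors of the let-7 miRNA family and block their maturation, and let-7 in turn represses HMGA2, LIN28B and the IGF2BP genes. HMGA1 and HMGA2 are small chromatin proteins that bind AT-rich DNA through AT-hooks, and HMGA2 is known as an activator of IGF2BP2. The genes were chosen by family and with their p16 minus mock log2 differences in this table known, so those differences are given as a description, without p-values.

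The let-7 sequences are shown because they link the 3 families. All 9 mature let-7 and miR-98 sequences of the 5′ arm in RefSeq (GRCh38.p14) share 1 seed, bases 2 to 8, which stands in capitals in 5 of them, those whose host transcripts were on the array and passed the filter. Of the 12 hairpins of this family 9 hold GGAG, the letters that the zinc knuckles of LIN28 recognise. The table holds no mature miRNA level.
hsa-let-7a-5p: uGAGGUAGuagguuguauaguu
hsa-let-7e-5p: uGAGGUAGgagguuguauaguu
hsa-let-7f-5p: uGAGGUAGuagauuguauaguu
hsa-let-7g-5p: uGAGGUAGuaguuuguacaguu
hsa-miR-98-5p: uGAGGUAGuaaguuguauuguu

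The groups differed across the whole array, which sets the scale for the members. A probe set entered the test if it reached 4 in at least 3 of the 6 samples, and limma called 4895 of 11658 genes (42.0%) at an adjusted p under 0.05, and 67.9% in a fit with V as a replicate block. Of the variance between samples, 77.8% lay along a first principal component that divided p16 from mock, and 17.9% along a second one that divided both V1 samples from the other 4. CDKN2A, the transfected gene, read 5.61 to 6.43 in mock and 12.12 to 13.01 in p16 samples on its brightest probe set. On another it read 2.02 to 2.03 and 11.88 to 11.96, and the remaining one stayed at 3.06 to 3.35 over both groups. Its chromosomal neighbour MTAP is not carried by the cDNA. On the brightest MTAP probe set the level was 2.06 to 2.07 in mock and 10.77 to 11.35 in p16 samples. All 4 tested MTAP probe sets rose, but each lay under 4 in every mock sample. They passed the filter through their p16 samples alone, so high p16 values were a condition of testing them. Of the MTAP probe sets not tested, 1 stayed at 2.46 to 2.55 over both groups. Another read 2.11 to 2.12 in mock and 2.67 to 4.03 in p16 samples. The labels name Capan-1 for both groups, and the groups also differed in the level of this gene outside the cDNA. Whether both groups come from the same cells was not tested, so the p16 minus mock values below are not assigned to the cDNA. Of 13 duct and simple epithelial markers on the array, 12 reached 4 in every mock sample and 11 in every p16 sample, while 9 of 12 tested fell and 0 rose, CEACAM6, ELF3, SOX9 and MUC1 the most (differences of -6.61, -6.39, -5.75 and -5.13). Their mean level was 12.02 to 12.15 in mock and 8.84 to 9.23 in p16 samples. All 8 endothelial markers and 8 of 9 leukocyte markers, PTPRC among them, lay under 4 in every sample, as did 7 of 12 mesenchymal markers, COL1A2, COL3A1 and DCN among them. Of the 4 mesenchymal markers tested, 1 rose and 1 fell: LUM was at least 30.4-fold higher in p16 samples, from 2.72 to 8.92 (adjusted p = 2.67e-05), and VIM fell from 13.08 ± 1.49 to 7.20 ± 1.39 (adjusted p = 0.00617). LUM entered the test through its p16 samples alone, and CEACAM6, under 4 in every p16 sample, through its mock samples alone. The part of these differences in the members' values was not tested. In bulk RNA, fewer cells of a type and less RNA per cell cannot be told apart.

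Of the 22 member probe sets 9 passed the filter, from 5 genes, and 6 of them lay at or above 4 in all samples. IGF2BP1, IGF2BP2 and HMGA1 were higher in p16 samples, HMGA2 was slightly lower, IGF2BP3 had about the same mean in both groups, and LIN28A and LIN28B lay under the floor throughout. In the fit across all probe sets 4 of the 9 were called higher and 0 lower, where 37.2% of all 24406 tested probe sets were called, 17.5% higher and 19.7% lower. In the same 4 the groups did not overlap. That held for 51.8% of all tested probe sets, 25.7% with p16 higher and 26.1% with p16 lower. The median difference was 1.15 over the 9 member probe sets, which come from 5 genes, and -0.00115 over all tested probe sets. As this contrast was used in choosing the genes, nothing is read from these counts or from the medians.

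**Figure D1:**
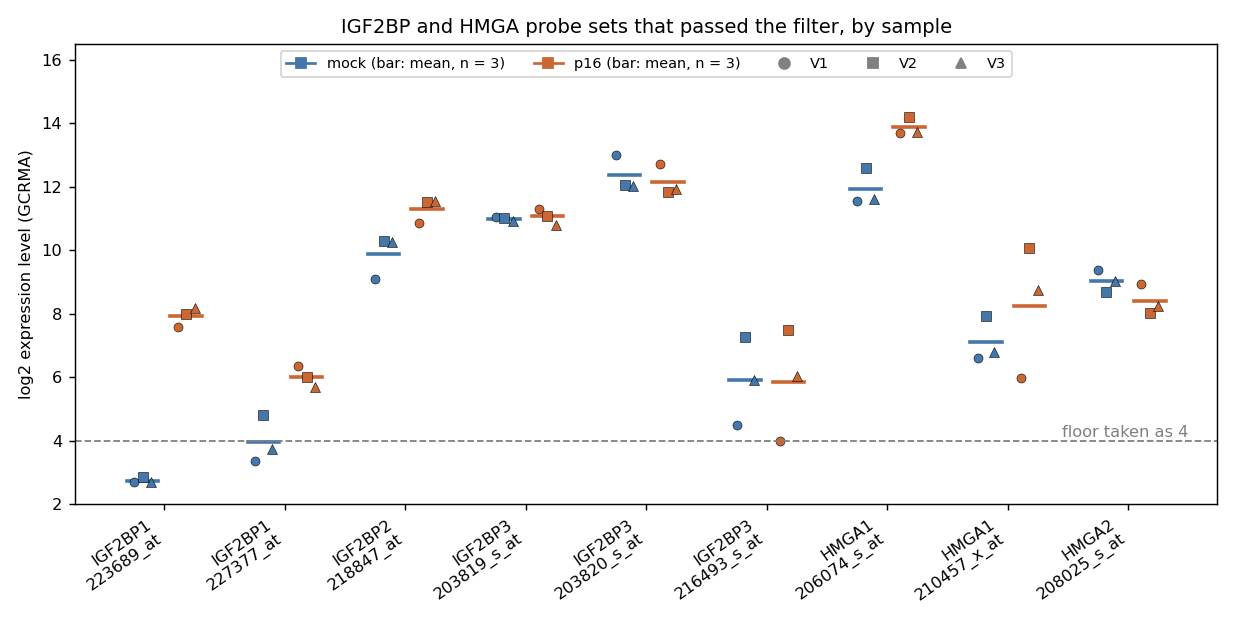
Log2 expression level of the 9 member probe sets that passed the filter, in each sample (circle V1, square V2, triangle V3), with the mean of the 3 samples of a group as a bar and the floor of 4 as a dashed line. IGF2BP1 223689_at read 2.68 to 2.84 in mock and 7.56 to 8.17 in p16 samples, while the groups overlapped in all 3 IGF2BP3 probe sets.

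IGF2BP1, the family member best known for carrying beta-actin mRNA in embryonic cells, showed the largest difference of the 7 genes. Its probe set 223689_at read 2.69, 2.84 and 2.68 in the mock samples V1, V2 and V3 and 7.56, 8.0 and 8.17 in the p16 samples. All mock samples lay under the floor and all p16 samples far above it, so this probe set detected IGF2BP1 in the p16 samples alone. The means were 2.74 ± 0.09 (SD, n = 3) and 7.91 ± 0.31, at least 15.0-fold higher in p16 samples against a floor of 4 (a difference of 5.17 as measured, SE 0.21). It passed the filter through its p16 samples alone. The difference between same-numbered samples was 4.87, 5.16 and 5.48 in V1, V2 and V3.

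A second IGF2BP1 probe set, 227377_at, read 3.37, 4.82 and 3.72 in mock and 6.35, 6.0 and 5.69 in p16 samples. Mock V2 alone among the mock samples lay above the floor, and the groups did not overlap. The difference was 2.05 (SE 0.42, n = 3 per group), at least 3.34-fold, with same-numbered samples 2.98, 1.18 and 1.97 apart. Its call was lost without mock V3, which left 2 of the member probe sets called, and with values under 4 raised to 4. The remaining probe set, 241574_s_at, read 2.52 to 2.54 in mock samples, 2.60 and 2.56 in p16 V1 and V2, and 3.74 in p16 V3. It stayed under 4 throughout and gives no fold. The 2 tested IGF2BP1 probe sets thus gave differences of unlike size, 5.17 and 2.05.

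IGF2BP2, the member with a known role in metabolism and in embryonic muscle, was present in both groups. Its bright probe set 218847_at read 9.10, 10.28 and 10.25 in mock and 10.86, 11.50 and 11.57 in p16 samples. The groups did not overlap, and V1 was the lowest sample of each. The means were 9.88 ± 0.67 and 11.31 ± 0.39, 2.70-fold higher in p16 samples, and every same-numbered pair showed p16 higher, by 1.76, 1.22 and 1.31. This call was lost when mock V2, mock V3, p16 V2 or p16 V3 was left out, with the difference between 1.04 and 1.66 over all 6 such fits, and it was also lost without the filter on low values and with values under 4 raised to 4. The other probe set, 223963_s_at, lay at 2.46 to 3.40 in all samples, with overlapping groups.

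IGF2BP3, the member most often reported in pancreatic carcinoma, did not differ beyond its spread. The brightest of its probe sets, 203820_s_at, read 13.00, 12.06 and 12.01 in mock and 12.73, 11.83 and 11.91 in p16 samples, a difference of -0.20 with a 95% interval from -1.15 to 0.75. On 203819_s_at it read 11.04, 11.01 and 10.92 in mock and 11.31, 11.09 and 10.80 in p16 samples, a difference of 0.08 with an interval from -0.39 to 0.54. These intervals come from the fit without V. They leave room for a change of either sign, and on the first probe set for one of over 2-fold in the lower direction. Between same-numbered samples, in V1, V2 and V3, the differences were -0.28, -0.23 and -0.09 on the first and 0.27, 0.08 and -0.12 on the second. Another probe set, 216493_s_at, spread much more widely, with 4.50, 7.27 and 5.91 in mock and 3.99, 7.48 and 6.03 in p16 samples. Its interval, from -2.73 to 2.61, says little. The last, 1569033_at, lay at 3.16 to 3.60 in all samples.

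LIN28A and LIN28B, the let-7 blockers, were under the floor in every sample of both groups. LIN28A read 2.65, 2.66 and 2.60 in mock and 2.76, 2.70 and 2.69 in p16 samples. LIN28B read 2.17, 2.18 and 2.16 in mock and 2.22, 2.19 and 2.23 in p16 samples. Each was higher in every p16 sample, by 0.08 and 0.04 on average. Such shifts were general below the floor: of 28103 probe sets under 4 in all samples, 80.2% had every p16 sample above every mock sample, as had 9 of the 12 member probe sets there. The median shift was 0.04 over all of these and 0.07 over the member probe sets, so no expression is read from it.

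HMGA1, the chromatin protein most widely raised in carcinomas, was bright in both groups and higher in p16 samples on its main probe set. On 206074_s_at it read 11.55, 12.60 and 11.60 in mock and 13.70, 14.21 and 13.73 in p16 samples. The groups did not overlap, and V2 was the highest sample of each. The means were 11.92 ± 0.59 and 13.88 ± 0.29, 3.90-fold higher in p16 samples, with same-numbered samples 2.15, 1.61 and 2.12 apart. Leaving out 1 sample in turn gave differences between 1.78 and 2.30, and it was not called with values under 4 raised to 4.

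The second HMGA1 probe set, 210457_x_at, did not show the same pattern. It read 6.61, 7.92 and 6.79 in mock and 5.97, 10.06 and 8.74 in p16 samples, so that p16 V1 lay below all mock samples and the other p16 samples above them. The difference was 1.15 with an interval from -1.49 to 3.79, and it was called only when p16 V1 was left out, at 2.29. The suffix x of an Affymetrix probe set marks probes that may also match other transcripts, and HMGA1 has processed pseudogenes, so this value is uncertain.

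HMGA2, the let-7 target that is the classical marker of the oncofetal programme, was expressed in both groups and somewhat lower in p16 samples. Its probe set 208025_s_at read 9.38, 8.69 and 9.02 in mock and 8.94, 8.03 and 8.24 in p16 samples. Each p16 sample lay below the mock sample of the same number, with differences of -0.44, -0.66 and -0.78, yet p16 V1 overlapped the mock range. The difference was -0.63 with a 95% interval from -1.40 to 0.15, or 1.54-fold, and it was not called. Under the replicate block it was called lower, which made 4 higher and 1 lower of 9 (63.5% of all tested probe sets were called in that fit). The other 8 HMGA2 probe sets read 1.99 to 4.17, and 7 of them lay under 4 in every sample. Only 1558682_at crossed the floor, in p16 V3 at 4.17. The array therefore reported HMGA2 through 1 of its 9 probe sets, and the main probe sets of HMGA1 and HMGA2 had differences of opposite sign, of which that of HMGA2 has an interval that includes 0.

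**Figure D2:**
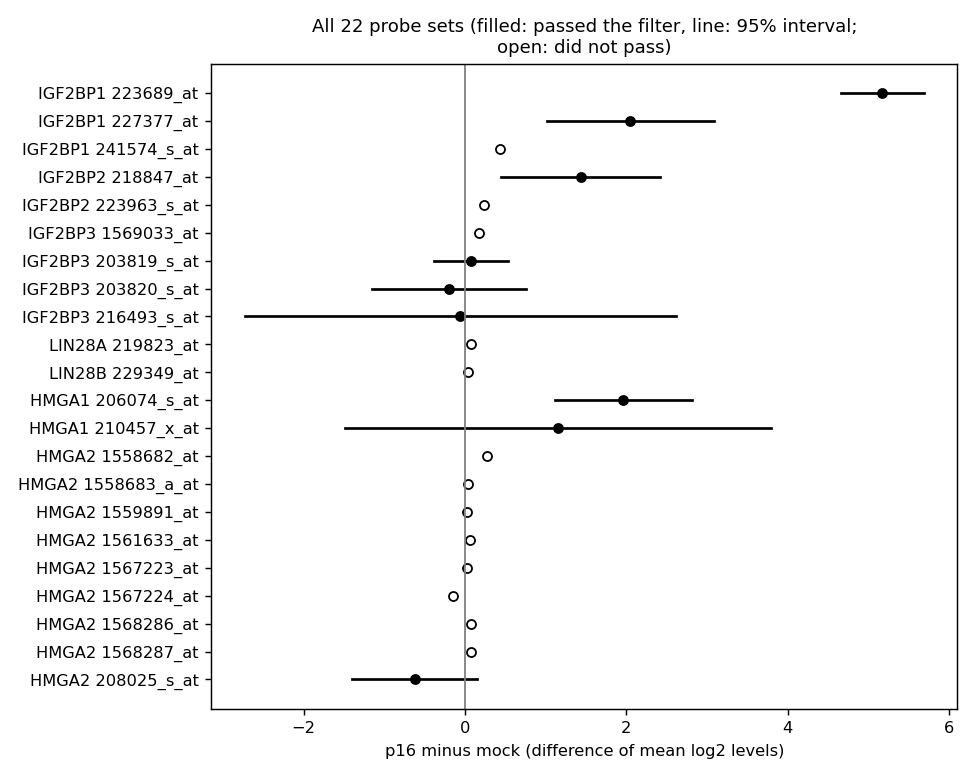
Difference of mean log2 level, p16 minus mock (n = 3 per group), for all 22 member probe sets; filled points passed the filter and carry a 95% interval from limma, open points did not pass. The largest differences are 5.17 (IGF2BP1 223689_at), 2.05 (IGF2BP1 227377_at) and 1.96 (HMGA1 206074_s_at), the open points lie between -0.15 and 0.44, and the intervals describe the spread only, since this contrast was known when the genes were chosen.

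The V numbers gave a comparison that had no part in choosing the genes. What a V number means is not given in the labels. With the group kept in the model, 4 of the 9 member probe sets differed between V1, V2 and V3 (limma F test, adjusted p under 0.05), where 33.0% of all tested probe sets did. IGF2BP2 218847_at was lowest in V1 in both groups, with deviations of -0.78 from the mock mean and -0.45 from the p16 mean (adjusted p = 0.0355). HMGA2 208025_s_at showed the opposite, with V1 highest in both groups, at 0.35 and 0.54 above the group mean (adjusted p = 0.0411). IGF2BP3 went both ways on different probe sets. On 203820_s_at V1 was highest, 0.65 and 0.57 above the group mean (adjusted p = 0.0174), and on 216493_s_at V1 was lowest, with deviations of -1.39 and -1.84, and V2 was highest (adjusted p = 0.00793). The probe sets of IGF2BP3 thus disagree in direction, and no direction over V numbers can be given for the gene.

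Neither IGF2BP1 probe set was called over V numbers (adjusted p = 0.404 and 0.432). HMGA1 206074_s_at was highest in V2 in both groups, by 0.68 and 0.33 (adjusted p = 0.0602), and HMGA1 210457_x_at had the widest range of the 5 not called, with a mean deviation of -1.39 in V1 and 1.31 in V2 (adjusted p = 0.103). These F tests rest on 2 residual degrees of freedom besides the spread borrowed across probe sets. The calls of IGF2BP2 and HMGA2 were lost without the filter on low values, which left the 2 of IGF2BP3, and all 4 were lost with values under 4 raised to 4. The count of 4 became 0 without mock V2 or without p16 V2 and 1 without mock V3 or without p16 V3.

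**Figure D3:**
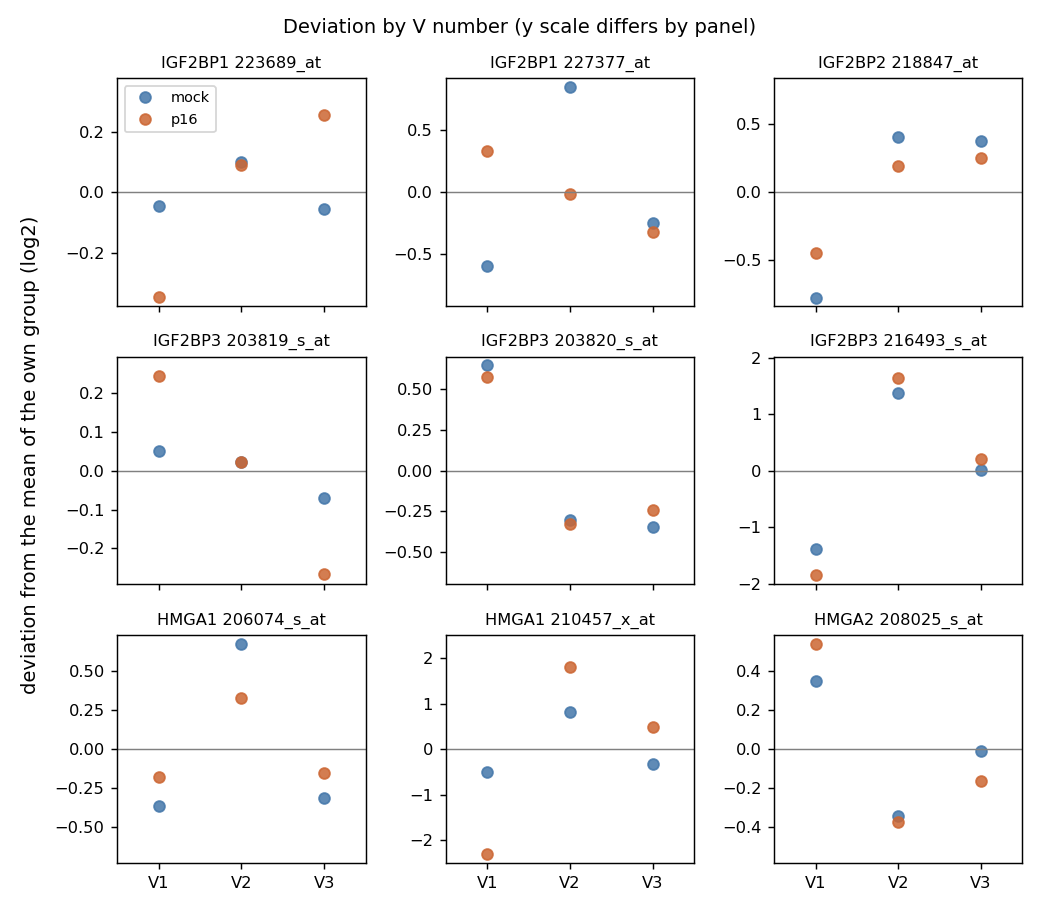
Deviation of each sample from the mean of its own group (log2) by V number, for the 9 tested member probe sets, mock in blue and p16 in orange; the y scale differs by panel. In IGF2BP2 218847_at V1 lies lowest in both groups (-0.78 and -0.45), and in HMGA2 208025_s_at it lies highest in both (0.35 and 0.54).

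Promoters are shown for the members that were higher in p16 samples and had an entry in the RefSeq table, IGF2BP2 and HMGA1, and for IGF2BP3, which was not, because the letters differ. The table held 7 promoters of 4 of the 7 genes. Each sequence is the 250 bases before a start site on the gene's strand, in GRCh38.p14, with capitals for GC boxes (GGGCGG on either strand, overlapping matches counted) and E-boxes (CACGTG).
IGF2BP2, chr3:185825043-185825292, minus strand: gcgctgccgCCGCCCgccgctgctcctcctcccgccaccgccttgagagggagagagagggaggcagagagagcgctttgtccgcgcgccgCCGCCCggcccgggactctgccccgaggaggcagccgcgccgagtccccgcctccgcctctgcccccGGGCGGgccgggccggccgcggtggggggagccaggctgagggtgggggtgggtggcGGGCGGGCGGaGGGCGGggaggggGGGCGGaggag
HMGA1, chr6:34236623-34236872, plus strand: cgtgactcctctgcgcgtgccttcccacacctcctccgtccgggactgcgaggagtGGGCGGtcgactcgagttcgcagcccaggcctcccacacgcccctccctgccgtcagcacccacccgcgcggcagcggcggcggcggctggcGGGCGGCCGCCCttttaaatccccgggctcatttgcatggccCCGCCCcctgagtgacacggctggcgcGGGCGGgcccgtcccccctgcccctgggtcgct
IGF2BP3, chr7:23470492-23470741, minus strand: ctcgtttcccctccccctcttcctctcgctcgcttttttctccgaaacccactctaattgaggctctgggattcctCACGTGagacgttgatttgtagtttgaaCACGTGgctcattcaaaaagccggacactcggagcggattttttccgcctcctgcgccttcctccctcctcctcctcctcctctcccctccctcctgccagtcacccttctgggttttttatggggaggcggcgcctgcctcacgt

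IGF2BP2 held 7 GC boxes in this window and HMGA1 held 5, while IGF2BP3 held 0. At least 1 GC box was found in 42.6% of all 35116 promoters of the table. IGF2BP3 held 2 E-boxes and the other windows shown held 0, against 6.34% of promoters with at least 1. LIN28B, whose level lay under the floor, held 2 GC boxes in its first window. The second windows of IGF2BP2, HMGA1 and LIN28B held no GC box, and that of LIN28B held 1 E-box. No member window held an E2F site as searched here (TTTCCCGC, TTTCGCGC, TTTGCCGC or TTTGGCGC, either strand), and 2.79% of all promoters did. A match describes the letters only. As IGF2BP3 was shown because its letters differ, no link between letters and expression levels is read.

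The genes most like each member were found over the 6 samples as the smallest root mean square difference between log2 values centred on each gene's mean. For IGF2BP1 they were LINC00470 (0.07), PSG5 (0.09) and ZNF610 (0.11), where the median over all tested genes was 2.64. Genes picked in this way have a group difference near that of their member by construction, here 5.16, 5.23 and 5.01. PSG5 has near-identical copies that its probes may not separate. For IGF2BP2 they were LIN37 (0.11), PLAC8 (0.12) and MRPL15 (0.12), and for HMGA1 LSM2 (0.17), DRAP1 (0.21) and SRM (0.21), which were 1.81, 2.15 and 1.60 higher in p16 samples. For IGF2BP3 they were SH3BP2, KLHL17 and TOP1MT (0.05 to 0.06), and for HMGA2 GATD3, YME1L1 and SELENOO (0.05 to 0.07).

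Transcripts that contain let-7 hairpins on their own strand were looked up because the mature miRNAs were not measured. MIR100HG, the long non-coding host of let-7a-2, rose from 2.46 ± 0.01 in mock to 6.84 ± 0.42 in p16 samples, at least 7.15-fold (limma adjusted p = 8.97e-05). Only 1 of its 2 probe sets was tested, and that one passed the filter through the p16 samples alone. WDR82, over let-7g, read 12.51 ± 0.36 and 11.85 ± 0.32 (adjusted p = 0.109, and 0.00608 with the replicate block). SPACA6, over let-7e, read 4.92 ± 0.67 and 4.38 ± 0.21 on the 1 of its 2 probe sets that was tested (adjusted p = 0.303). HUWE1, over let-7f-2 and miR-98, read 15.57 ± 0.01 and 15.50 ± 0.12 (adjusted p = 0.756), though 1 of its 2 tested probe sets was called higher. MIR99AHG, over let-7c, had 3 probe sets and none passed the filter. These transcripts were chosen after the files were seen, and a host level is not a level of its miRNA.

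The gene lists from here on were chosen with earlier results of these data known, so their counts and adjusted p-values serve as description. Among miRNA processing and silencing factors 2 of 18 tested rose and 2 fell, against 19.5% higher and 22.5% lower over all genes. TUT4, the uridylyltransferase that LIN28A recruits to let-7 precursors, rose by 2.42 (SE 0.24, adjusted p = 0.000848), and XPO5, which exports miRNA precursors from the nucleus, rose by 1.90 (adjusted p = 0.000668). TUT7, also of this list, was 1.55 lower on its brightest probe set, which was not called, though 3 of its 4 tested probe sets were called lower. DICER1, which cuts the precursors, fell by 1.02 on 2 of 3 probe sets (adjusted p = 0.0435), and AGO3, an Argonaute protein, fell by 0.62 on 1 of 4 (adjusted p = 0.0288). With the replicate block 3 rose and 7 fell. The DICER1 call was lost in 5 of the fits that left out 1 sample, all but that without mock V1, and the AGO3 call in all but that without p16 V2. The median difference was -0.22, and -0.03 over all genes.

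Of 28 tested genes described as let-7 targets, 7 rose, 5 fell and 16 were not called (14 and 9 with the block), with a median of 0.38. Over all genes 42.0% were called, and 67.9% with the block, so the list's count lies near the background. IGF1R, the IGF1 receptor, was at least 37.2-fold lower in p16 samples, from 9.22 ± 0.13 to 3.29 ± 0.05, and passed the filter through its mock samples alone. PBX3, a homeobox cofactor, rose 19.8-fold, the cytokine gene IL6 10.4-fold and STARD13 5.68-fold (adjusted p = 0.000363, 0.00068 and 0.000673). The list had calls in both directions, and these 4 calls held whichever sample was left out. The count of 12 fell to 7 without mock V2 or p16 V2 and to 6 without mock V3 or p16 V3.

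Of 14 tested mRNAs described as IGF2BP clients, 2 rose and 1 fell (6 and 3 with the block), with a median of 0.24. Beside this list and that of IGF2BP complexes, 42.0% of all genes were called, and 67.9% with the block. CCND3, a D-type cyclin, rose by 0.99 (adjusted p = 0.00552), TK1, thymidine kinase, rose by 0.71 on 1 of 2 probe sets (adjusted p = 0.0261), and FSCN1, the actin-bundling fascin, fell by 1.31 on 1 of 2 (adjusted p = 0.0272). The CCND3 call alone held in all fits that left out 1 sample. That of TK1 was lost without mock V2, mock V3, p16 V2 or p16 V3, and that of FSCN1 without mock V1, mock V2, p16 V2 or p16 V3. Without mock V2, p16 V2 or p16 V3 the count of 3 was 1. Among proteins described in IGF2BP complexes 2 of 17 rose and 0 fell (7 and 3 with the block), with a median of 0.28. STAU2, a double-stranded RNA-binding transport protein, rose by 1.82 (adjusted p = 0.00294), and FXR1, a relative of FMR1, by 0.80 on 2 of 5 probe sets (adjusted p = 0.0153). The FXR1 call was lost without mock V3, p16 V2 or p16 V3, which left 1.

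Of 15 other writers, erasers and readers of N6-methyladenosine, 4 rose and 1 fell (7 and 2 with the block), with a median of 0.26. Across all genes 19.5% rose and 22.5% fell, and 67.9% were called with the block. The reader YTHDF3 rose by 1.57 (adjusted p = 0.00196) and the methyltransferase METTL3 by 1.34 (adjusted p = 0.0107), on 1 of 2 and 1 of 3 probe sets. The demethylases went opposite ways, with ALKBH5 1.25 higher on 1 of 2 probe sets (adjusted p = 0.0416) and FTO lower, from 11.89 ± 0.10 to 10.69 ± 0.19 (adjusted p = 0.00344). The ALKBH5 call held only in the fit without mock V1. The count of 5 was 3 without mock V2, mock V3, p16 V2 or p16 V3.

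Among 11 other high mobility group genes 2 rose and 1 fell (6 and 1 with the block), with a median of 0.50. The share called over all genes was 42.0%, and 67.9% with the block. HMGN5, a nucleosome-binding protein, was at least 63.1-fold higher in p16 samples, from 2.82 ± 0.59 to 9.98 ± 0.61 (adjusted p = 0.000117). It passed the filter only through its p16 samples. HMGN4 rose by 1.28 (adjusted p = 0.0229), and HMGN3 fell by 0.78 (adjusted p = 0.0294). Without mock V2, mock V3 or p16 V3 only 1 was called, and without mock V1 5 were. The HMGN4 call was lost without mock V2, mock V3 or p16 V3, and the HMGN3 call in every fit that left out 1 sample but that without mock V1.

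Of 12 tested genes described as regulated by HMGA proteins, 5 rose and 1 fell, with a median of 0.33. Across all genes 19.5% rose and 22.5% fell. IGFBP3, an IGF-binding protein, was at least 915-fold higher and TWIST1, a transcription factor of the mesenchymal transition, at least 72.3-fold higher in p16 samples. The lens chaperone gene CRYAB was at least 8.21-fold higher, and IGFBP1 at least 112-fold lower (adjusted p of 0.000396 or lower for all 4). These calls held whichever sample was left out. IGFBP3, TWIST1 and CRYAB passed the filter through their p16 samples alone, so high p16 values were a condition of testing them. Another 5 of 18 genes of the list lay under 4 in all samples.

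**Figure D4:**
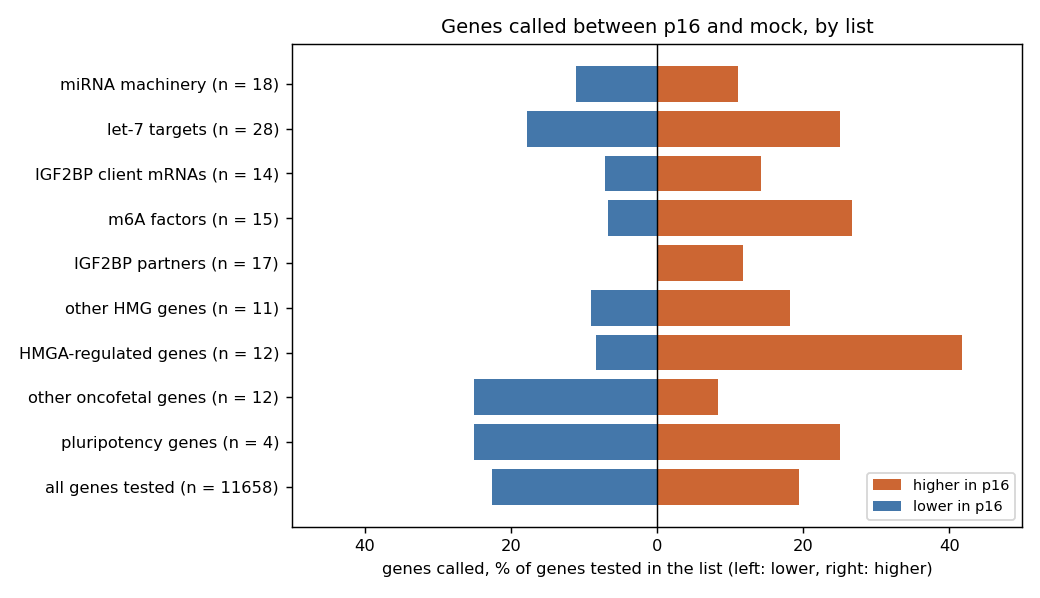
Share of tested genes called higher (right) or lower (left) in p16 samples, for each list of related genes and for all 11658 genes tested (limma, adjusted p under 0.05). HMGA-regulated genes had 5 of 12 higher and IGF2BP partners 2 of 17, against 19.5% higher over all genes.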

How the data were processed

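The deposited table holds log2 expression levels of 54675 probe sets in 6 samples. The authors used GCRMA, as the submitters' processing notes name it without a version. By design this method models nonspecific binding by probe base content and quantile-normalizes the arrays, so low values are compressed. After 62 control probe sets were left out, 41091 had 1 gene in the platform annotation and 1801 had several, none of them a member. Column medians were 3.11 to 3.18. Probe sets with at least 4 in at least 3 samples were tested with limma 3.58.1 in R 4.3.3 (lmFit, eBayes, two-sided, Benjamini-Hochberg over 24406 probe sets, threshold 0.05). The test was checked on simulated data with independent noise and values far above the floor. Compression at the floor and shifts shared by a V number were not covered by that check of p16 against mock. A gene has the value of its brightest tested probe set. Where a sample of the dimmer group lay under 4, the fold is "at least", against values raised to 4. Members and lists were chosen with earlier results of these data known. The rule for named genes was all members, per list up to 4 called genes with the largest change, and the 3 genes most like each tested member, with CDKN2A and MTAP as a check. Genes of the pluripotency list are in the closing section.

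After each group's mean was subtracted, mock and p16 samples of one V number correlated over tested probe sets (0.81 for V1, 0.75 for V2, 0.67 for V3). Each lies above 0.1, so V numbers count as pairs, while the main fit has no block. Sequences came from RefSeq tables and were handled with Python 3.11.15 and pandas 2.3.3.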

Additional observations from a re-analysis of the deposited data

Results flagged for a closer look

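In 2 member probe sets the difference between p16 and mock had one sign in the V1 samples and the other sign in both the V2 and the V3 samples. HMGA1 210457_x_at was 0.64 lower in p16 than in mock in V1 (a difference of -0.64) and 2.13 and 1.95 higher in V2 and V3, so the V1 difference was -2.68 relative to the mean of the others. IGF2BP3 216493_s_at differed by -0.51 in V1 and by 0.21 and 0.13 in V2 and V3, -0.68 relative to their mean. Each V number is 1 pair of samples, so these differences were not tested.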

How the results depend on the processing

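Differences of the 9 tested member probe sets kept their sign where they were called, under all alternatives run, and only IGF2BP1 223689_at moved by more than its spread, to 3.91 with values under 4 raised to 4. That setting left 2963 genes called of the 4895, 1 member probe set, 0 over V numbers, 6 let-7 targets, 1 IGF2BP client, 2 N6-methyladenosine factors, 1 other high mobility group gene and 2 other oncofetal genes. The cause was not tested. Without the filter on low values 3 N6-methyladenosine factors and, over V numbers, 2 member probe sets were called. Fitting V as a replicate block gave 7916 called genes, and 10 miRNA factors, 23 let-7 targets, 9 IGF2BP clients, 9 N6-methyladenosine factors, 10 IGF2BP partners, 7 other high mobility group genes and 9 other oncofetal genes. Among members the block added HMGA2 and changed no other call. With the mean over probe sets as a gene's value 7 miRNA factors and 4 IGF2BP partners were called. Without the V1 samples of both groups, added after seeing the data, the counts were 8 miRNA factors, 21 let-7 targets, 7 clients, 8 N6-methyladenosine factors, 7 partners, 5 other high mobility group genes and 8 other oncofetal genes. Leaving out 1 sample in turn, with the tested probe sets kept, gave 3484 to 4924 genes, 2 to 5 member probe sets (0 to 4 over V numbers), 2 to 3 miRNA factors, 6 to 13 let-7 targets, 1 to 4 clients, 3 to 6 N6-methyladenosine factors, 1 to 3 partners, 1 to 5 other high mobility group genes, 6 to 7 HMGA-regulated genes, 3 to 5 other oncofetal genes and 2 to 3 pluripotency genes. Where a V number then had 1 sample, that sample is assumed to vary like the others. Equal medians, quantile normalization, the stricter filter and the trended robust variance moved no count by over 1.5 times. With 3 arrays a group and values compressed at the floor, small changes in dim probe sets cannot be seen.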

Other observations

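Other oncofetal genes and genes of pluripotent cells were mixed. These 2 lists were also chosen with earlier results known, so their adjusted p-values serve as description. Of 12 tested oncofetal genes 1 rose and 3 fell in p16 samples (4 and 5 with the replicate block), with a median of -0.13. Across all genes 19.5% rose and 22.5% fell, and 67.9% were called with the block. WT1, a zinc finger factor of the embryonic kidney, was at least 22.1-fold higher (limma adjusted p = 5.62e-05). The placental-type alkaline phosphatases ALPG and ALPP were at least 6.72-fold and 5.78-fold lower (adjusted p = 0.000516 and 0.0134), and CEACAM5, carcinoembryonic antigen, at least 1.61-fold lower (adjusted p = 0.00345). For ALPG, 1 of 2 tested probe sets was called lower. WT1 passed the filter through its p16 samples alone, and ALPG and CEACAM5 through their mock samples alone. ALPP and ALPG are near-identical copies, so their probe sets are uncertain, and the ALPP call was lost without mock V3.

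Of 12 pluripotency genes on the array 8 lay under 4 in all samples, as LIN28A and LIN28B did, and 4 were tested. Among these 1 rose and 1 fell, where 42.0% of all genes were called. SOX2 was at least 9.90-fold lower in p16 samples (7.31 ± 0.05 in mock and 3.60 ± 0.09, n = 3, limma adjusted p = 2.66e-05), and DPPA2 at least 2.77-fold higher (3.47 ± 0.04 and 5.47 ± 0.18, adjusted p = 0.000393). SOX2 passed the filter through its mock samples alone and DPPA2 through its p16 samples alone.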
